A study of Mus musculus with 12 samples.

Results

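The mRNAs of 10 feedback inhibitors of MAP kinase signalling were followed in mouse cardiomyocytes (CMs) sorted after Cre-mediated deletion of Srf, which encodes serum response factor, and in control CMs. The 10 genes were the dual-specificity MAP kinase phosphatases Dusp1, Dusp4, Dusp5, Dusp6, Dusp7, Dusp8, Dusp10 and Dusp16 and the Sprouty genes Spry1 and Spry2. They were picked by symbol from the 23337 genes of the count tables, by a rule that set no threshold and named no comparison, but with earlier results of these data in view. Counts of these genes past a threshold are therefore a description, read beside the share of all genes past it, and the p-values below come from fits over all genes tested.

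All animals carried Cre-activated fluorescent reporters at Rosa (Cas9GFP, tdTomato or mTmG) and received AAV9-cTNT-Cre, a viral vector that expresses Cre recombinase from the cardiac troponin T promoter. KO mice were Srf-flox/flox and CTRL mice were Srf-flox/+, so CTRL cells hit by Cre also lost one of their Srf copies. Neonatal animals were injected at postnatal day 1 and their CMs collected at day 14 (P14); adult animals were injected at day 60 and collected at day 90 (P90). The vector dose was low, so that scattered CMs in an otherwise unrecombined heart were hit, and fluorescent CMs were sorted after collagenase perfusion. Each of the 4 groups held 3 biological replicates, each sequenced from amplified polyA RNA.

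Growth factor and stress signals reach the nucleus through cascades that end in the MAP kinases ERK, JNK and p38. The dual-specificity phosphatases remove phosphate from both the threonine and the tyrosine of the MAP kinase activation loop and so switch the kinases off. Textbook groupings separate nuclear, rapidly induced enzymes (Dusp1, Dusp4, Dusp5), cytoplasmic enzymes that prefer ERK (Dusp6, Dusp7) and enzymes that prefer JNK and p38 (Dusp8, Dusp10, Dusp16). Sprouty proteins act upstream, between receptor tyrosine kinases and ERK, and several of these genes are themselves induced by the pathway that they restrain. In the heart, ERK, JNK and p38 signalling is known for its part in growth and in the response to load. SRF binds DNA at a motif called the CArG box, and with ternary complex factors, which ERK phosphorylates, or with actin-regulated MRTF cofactors it drives immediate early and cytoskeletal genes.

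Total counts ran from 9740389 to 23103460 per library, and a count of 3 corresponded to 0.308 CPM in the smallest and 0.130 CPM in the largest library. CPM is the read count of a gene relative to the library's total, here scaled by the trimmed mean of M-values (TMM) over all 12 libraries. Srf was at 49.4 to 64.0 CPM in P14 CTRL and at 32.1, 27.5 and 9.75 CPM in P14 KO, and at 59.1 to 81.1 CPM in P90 CTRL and 28.1 to 32.9 CPM in P90 KO, with no overlap at either stage (log2 fold change -1.30 ± 0.36 with an edgeR adjusted p of 0.0628 at P14, and -1.23 ± 0.13 with an edgeR adjusted p of 0.00347 at P90). The table does not say which part of Srf was deleted, so the residual reads do not give the share of unrecombined cells. By immunostaining, the authors found that most fluorescent CMs of flox/flox hearts lacked SRF protein. They put the smaller loss of mRNA down to likely imperfect sorting of large CMs. The 6 CM markers Myh6, Tnnt2, Actn2, Ryr2, Myl2 and Tnni3 summed to 58029 to 89081 CPM in every library. The sum was lower in KO (58029 to 62392 at P14, 71592 to 74638 at P90) than in CTRL (79200 to 89081 and 78280 to 88953), but single markers went both ways: by edgeR only Myh6 passed, at P14 and lower, and 1 of 6 at P14 and 4 of 6 at P90 had positive log2 fold changes. Summed endothelial markers lay at 167 to 392 CPM, fibroblast markers at 47.6 to 316 CPM, leukocyte markers at or below 13.9 CPM and the erythroid genes in the tables at or below 2.39 CPM. P14 CTRL replicate 2 had the fewest endothelial (180.5 CPM) and fibroblast (106 CPM) marker reads at P14. Y-linked genes were counted in 1 library each of P14 CTRL, P14 KO and P90 CTRL and in none of P90 KO, so animals of both sexes, or pools, were spread unevenly over the groups. In sorted bulk RNA, fewer cells of a type and less RNA per cell cannot be told apart.

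Among the 10 genes, Dusp1 was the most abundant per length of exon in every library and Dusp4 the least. In P14 CTRL the level per kilobase (kb) of exon was 122 ± 35.3 CPM per kb for Dusp1 (SD, n = 3, as for every ± in this paragraph), 19.0 ± 0.986 for Dusp7, 14.8 ± 1.86 for Dusp5 and 12.98 ± 2.86 for Dusp8. Dusp5 and Dusp8 overlapped, while Dusp7 lay above both in every sample. Dusp6 (5.18 ± 1.26 CPM per kb), Spry1 (4.93 ± 2.16) and Dusp10 (4.58 ± 0.687) formed a middle tier whose neighbours overlapped, followed by Dusp16 (2.66 ± 0.304) and Spry2 (2.60 ± 0.481), which also overlapped. Dusp4 stood at 0.104 ± 0.0316 CPM per kb, and its CTRL libraries held 3 to 8 reads each. The adult CTRL order differed in its middle: Dusp5, at 5.28 ± 1.40 CPM per kb, overlapped Dusp10 (5.00 ± 0.485), and Dusp16, Dusp6, Spry1 and Spry2 overlapped their neighbours between 2.71 and 1.75. In P14 KO, Dusp8 (23.3 ± 2.04 CPM per kb) lay above Dusp7 (15.7 ± 1.96) and Dusp6 (8.73 ± 0.117) above Dusp5 (7.69 ± 0.547) with no overlap, the reverse of both orders in P14 CTRL. In P90 KO, each gene of the order stayed above the next in all samples, from Dusp1 (289 ± 75.9 CPM per kb), Dusp7 (29.1 ± 2.40), Dusp8 (15.1 ± 2.01) and Dusp5 (9.07 ± 1.01) down to Dusp4 (0.480 ± 0.271).

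**Figure D1:**
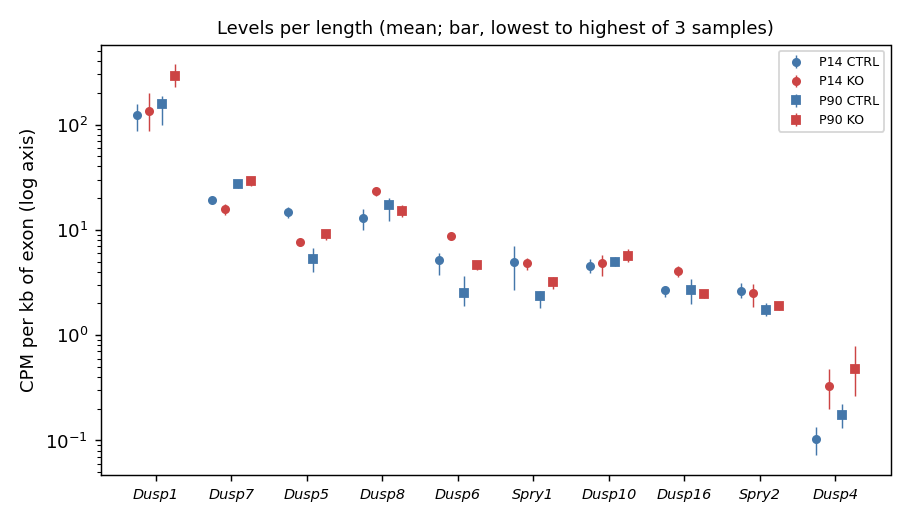
Levels of the 10 genes in CPM per kb of exon on a log axis, genes on the x axis in their P14 CTRL order; points are means, bars run from the lowest to the highest of 3 samples, blue is CTRL, red is KO, circles are P14 and squares P90. Dusp1 lies at 122 to 289 CPM per kb in the 4 groups, above the other 9 genes, and the Dusp4 means are at most 0.480.

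The first comparison asked which of these genes depended on Srf in CMs that were still maturing. In neonatal KO, Dusp6, Dusp8 and Dusp16 mRNA was higher than in CTRL by 1.68-fold, 1.79-fold and 1.53-fold, and Dusp5 mRNA was lower, at 0.518 of the CTRL level. Of the 9 genes with enough reads to test, 4 passed an adjusted p of 0.05 (edgeR's quasi-likelihood test with Benjamini-Hochberg adjustment over 12546 genes), 3 higher and 1 lower, where 8.59% of all tested genes passed, 3.99% higher and 4.6% lower. Their median log2 fold change was 0.09, beside 0.0011 over all tested genes.

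Dusp5 (chr19:53529318-53541322, plus strand, mm10), a nuclear phosphatase specific for ERK, gave 17.4, 14.9 and 19.1 CPM in P14 CTRL and 9.42, 8.18 and 9.05 CPM in P14 KO. Every KO sample lay below every CTRL sample, and the 3 KO values lay within a narrower range than the CTRL values. The log2 fold change was -0.95 ± 0.15 (SE; edgeR adjusted p = 0.0139). Dusp5 was the 1 gene of the 9 tested that was called lower in neonatal KO, and its sign stayed negative in all 13 alternative fits, from -1.04 to -0.74.

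The counted exons of Dusp5 span 1155 bases and begin downstream of its RefSeq start site at position 53529145. Its promoter held a pair of directly adjacent CArG boxes, the motif that SRF binds. RefSeq start sites were available for 9 of the 10 genes, Dusp4 being the exception, and windows from 250 bases before to 50 bases after the start (GRCm38.p6, 300 bases) were searched on both strands for the CArG box, the cyclic AMP response element TGACGTCA, the AP-1 site TGANTCA and the ETS site CCGGAAGT. No letters are shared between matches of different motifs in these windows. CArG boxes occurred in 1.63% of 32851 mouse promoter windows, TGACGTCA in 1.79%, TGANTCA in 7.81% and CCGGAAGT in 3.89%. Among the 9 windows, a CArG match was found in Dusp5, at -82 to -73 and -72 to -63 counted from 0 at the start site. TGACGTCA was found once in Dusp1 (-143 to -136) and in 2 places in Dusp8 (-107 to -100 and -63 to -56), and the other 6 windows held none of the 4 motifs as searched. The 3 windows with a match are printed 5′ to 3′ on the gene's strand, with the matches in capitals. A match describes these letters only. The authors mapped SRF binding to chromatin in P14 and adult hearts, but those data were not used here. They lie at chr19:53528895-53529194 on the plus strand for Dusp5, at chr17:26508423-26508722 on the minus strand for Dusp1 and at chr7:142095235-142095534 on the minus strand for Dusp8.
Dusp5: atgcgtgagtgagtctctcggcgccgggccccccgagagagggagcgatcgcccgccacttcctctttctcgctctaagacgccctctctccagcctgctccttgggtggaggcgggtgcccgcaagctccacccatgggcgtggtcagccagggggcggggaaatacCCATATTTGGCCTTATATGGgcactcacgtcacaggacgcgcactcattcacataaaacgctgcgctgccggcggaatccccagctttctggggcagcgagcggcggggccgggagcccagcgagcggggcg
Dusp1: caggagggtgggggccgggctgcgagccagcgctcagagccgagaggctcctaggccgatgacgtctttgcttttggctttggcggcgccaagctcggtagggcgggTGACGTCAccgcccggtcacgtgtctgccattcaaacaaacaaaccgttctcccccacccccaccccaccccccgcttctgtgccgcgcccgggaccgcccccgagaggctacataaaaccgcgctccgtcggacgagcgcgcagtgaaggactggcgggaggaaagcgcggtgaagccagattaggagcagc
Dusp8: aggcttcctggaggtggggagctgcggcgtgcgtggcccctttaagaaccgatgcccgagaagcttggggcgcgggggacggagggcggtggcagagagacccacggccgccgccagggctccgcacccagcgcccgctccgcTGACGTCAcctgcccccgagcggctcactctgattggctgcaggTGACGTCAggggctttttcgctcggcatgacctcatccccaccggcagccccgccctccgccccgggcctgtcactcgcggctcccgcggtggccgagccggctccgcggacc

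**Figure D2:**
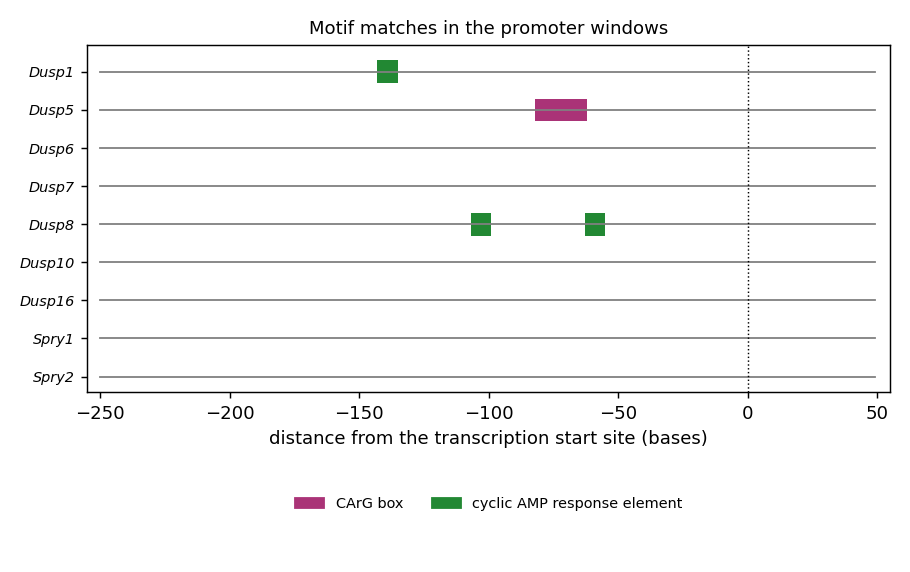
Positions of motif matches (boxes) in the 300-base promoter windows of the 9 genes with a RefSeq start site; the x axis is the distance in bases from the start site (dotted line) and each grey line is a window. The adjacent CArG boxes of Dusp5 lie between -82 and -63, the cyclic AMP response elements of Dusp8 and Dusp1 between -143 and -56, and 6 windows show none.

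In contrast to Dusp5, its cytoplasmic counterpart Dusp6, which is also selective for ERK, rose in neonatal KO. Dusp6 (chr10:99263231-99267489, plus strand) was at 16.2, 10.5 and 16.8 CPM in P14 CTRL and at 24.0, 24.6 and 24.7 CPM in P14 KO. The groups did not overlap, and the 3 KO samples were nearly equal, with an SD of 0.328 CPM against 3.51 CPM in CTRL. The log2 fold change was 0.75 ± 0.18 (edgeR adjusted p = 0.0414), and 0.56 without P14 CTRL replicate 2, the lowest CTRL sample, with the edgeR adjusted p at 0.0270. The third ERK-selective gene, Dusp7, was at 62.3, 63.4 and 57.4 CPM in CTRL and 56.6, 50.6 and 44.0 CPM in KO. Its samples did not overlap either, with KO the lower, but the difference of -0.28 ± 0.12 on the log2 scale did not pass (edgeR adjusted p = 0.186).

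Of the phosphatases that prefer JNK and p38, Dusp8 and Dusp16 rose and Dusp10 did not pass. Dusp8 (chr7:142079487-142095284, minus strand) went from 64.5, 47.9 and 75.3 CPM in CTRL to 116, 119.7 and 101 CPM in KO, without overlap, a log2 fold change of 0.84 ± 0.17 (edgeR adjusted p = 0.0225). Without P14 CTRL replicate 2, the lowest sample, it was 0.68 (edgeR adjusted p = 0.0208). Dusp16 (chr6:134715473-134792628, minus strand) was at 11.8, 14.8 and 14.1 CPM in CTRL and at 20.8, 23.2 and 18.4 CPM in KO, with each KO sample above each CTRL sample. Its log2 fold change was 0.61 ± 0.15 (edgeR adjusted p = 0.0419). Dusp10, in contrast, overlapped between the groups, with 10.6 to 14.3 CPM in CTRL and 9.90 to 15.5 CPM in KO, a difference of 0.09 ± 0.20 on the log2 scale (edgeR adjusted p = 0.842).

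The remaining nuclear phosphatases gave no call at P14. Dusp1 (chr17:26505591-26508472, minus strand), an immediate early gene that acts on all of the main MAP kinases, varied widely within both groups: 305, 168 and 239 CPM in CTRL and 226, 388 and 169 CPM in KO. The groups overlapped, and the log2 fold change was 0.13 ± 0.31 (edgeR adjusted p = 0.844), and -0.0629 without P14 CTRL replicate 2. Dusp4, a nuclear relative of Dusp1, was at 0.329, 0.250 and 0.176 CPM in CTRL and 0.745, 0.479 and 1.16 CPM in KO. All KO samples of Dusp4 were above all CTRL samples, but 3 to 7 reads in the CTRL libraries and 10 to 23 in the KO libraries kept it below the minimum for testing. Counting all 10 genes, the P14 samples did not overlap in 6, 4 with KO higher and 2 with KO lower, where 32.7% of tested genes did not overlap (16% higher, 16.7% lower).

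Neither Sprouty gene differed detectably in neonatal KO. Spry1 (chr3:37639950-37644599, plus strand) was at 17.4, 6.65 and 12.8 CPM in CTRL and 12.3, 13.4 and 10.3 CPM in KO, so that all KO samples lay inside the CTRL range. The log2 fold change of Spry1 was -0.04 ± 0.31 (edgeR adjusted p = 0.962), and -0.33 without P14 CTRL replicate 2, its lowest sample. That library had the fewest endothelial and fibroblast marker reads at P14, and was also the lowest P14 CTRL sample for Dusp1, Dusp5, Dusp6 and Dusp8. The part of other cells in its Spry1 value was not tested. Spry2 was at 4.68 to 6.57 CPM in CTRL and 3.83 to 6.37 CPM in KO, a difference of -0.04 ± 0.25 (edgeR adjusted p = 0.939).

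The neonatal calls depended on having 3 KO samples: without any one of the KO replicates none of the 9 genes passed, and the count over all genes fell from 1078 to between 111 and 202. In those fits the log2 fold changes stayed at -0.99 to -0.88 for Dusp5, 0.76 to 0.77 for Dusp6, 0.80 to 0.92 for Dusp8 and 0.54 to 0.71 for Dusp16. Without P14 CTRL replicate 1 only Dusp5 passed, and without P14 CTRL replicate 3 Dusp16 was lost. Endothelial and fibroblast markers gave 0 of 6 calls each in this comparison, where 8.59% of all tested genes were called, so these counts say little about those cells. Their summed levels overlapped (180.5 to 392 CPM in CTRL and 237 to 341 CPM in KO for endothelial genes, 106 to 295 and 172 to 316 CPM for fibroblast genes). Of the 6 mural cell markers, Cspg4 rose, from 65.5, 31.8 and 47.2 CPM to 114.6, 119.98 and 131 CPM (log2 1.34 ± 0.23; edgeR adjusted p = 0.0157), while Pdgfrb, Rgs5, Kcnj8 and Myh11 overlapped. Abcc9 was lower in KO without overlap, at 346 to 425 CPM in CTRL and 253 to 328 CPM in KO (log2 -0.44 ± 0.14, edgeR adjusted p = 0.0831). Abcc9 made up most of the summed mural level, and whether its reads came from mural cells was not tested. The overlap of that sum (424 to 593 CPM in CTRL and 449 to 532 CPM in KO) therefore says little about the other mural markers. The 5 tested leukocyte markers had positive log2 fold changes, with a median of 0.56, 3 without overlap and 0 called, at sums of 5.15 to 8.83 CPM in CTRL and 8.72 to 12.0 CPM in KO. The part of these cells in the neonatal calls was not tested.

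**Figure D3:**
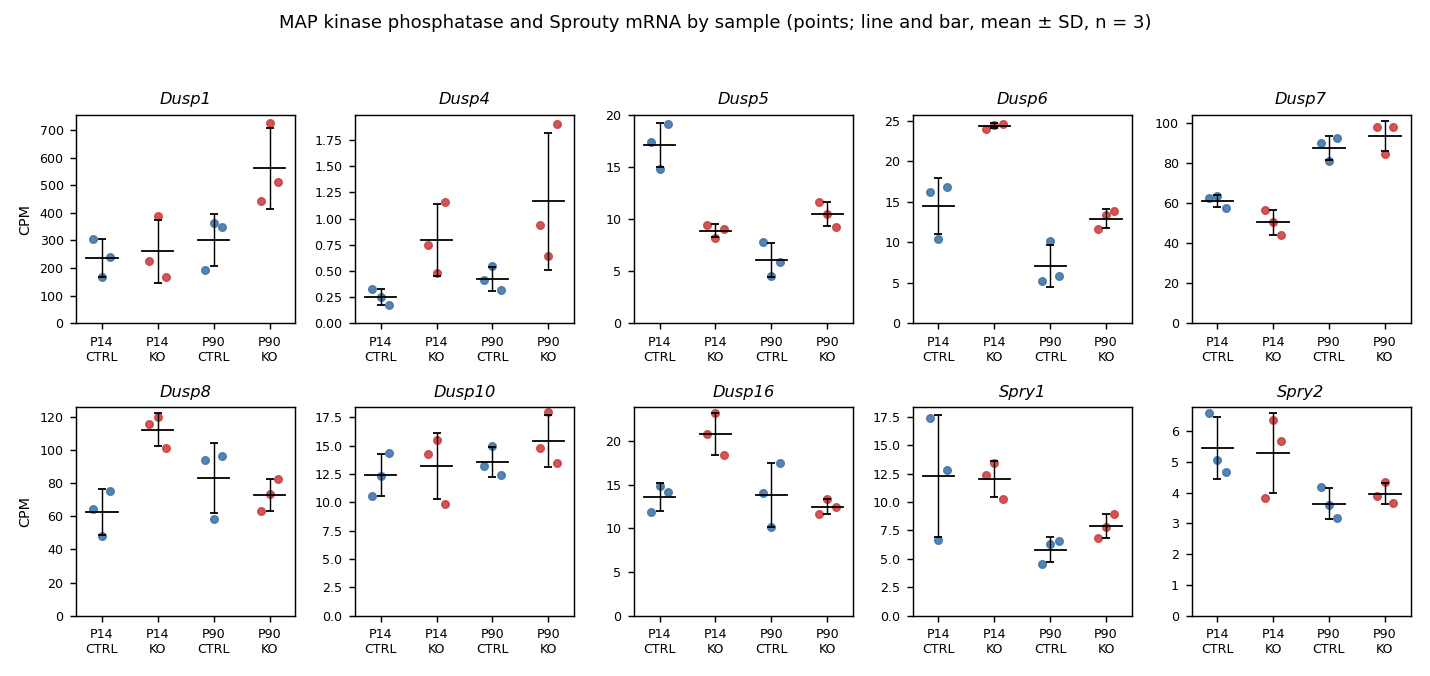
CPM of each of the 10 genes (y axis, linear from 0) in the 12 samples, grouped on the x axis as P14 CTRL, P14 KO, P90 CTRL and P90 KO; points are samples, lines and bars are mean ± SD (n = 3), blue is CTRL and red is KO. At P14 the KO samples of Dusp5 lie at 8.18 to 9.42 CPM, below all CTRL samples, and those of Dusp6, Dusp8 and Dusp16 lie above all CTRL samples.

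In adult KO, no gene of the 10 passed, but Dusp1, Dusp4, Dusp5, Dusp6 and Spry1 were each higher in all KO samples than in all CTRL samples. Of the 9 genes tested, 0 passed an adjusted p of 0.05 by edgeR, where 0.39% of 11808 genes did (0.237% higher, 0.152% lower). At an unadjusted p of 0.05, 4 of the 9 passed (Dusp1, Dusp5, Dusp6 and Spry1), where 16.2% of all genes did, and DESeq2 called 2, Dusp5 and Dusp6, where it called 2.9% of all genes. Non-overlapping samples were found in 21.6% of tested genes, 10.3% with KO higher, and in 5 of these 10 genes, all with KO higher. The median log2 fold change of the 9 genes was 0.20, beside 0.0057 over all genes.

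Dusp1 was at 193, 364 and 349 CPM in P90 CTRL and at 444, 726 and 512 CPM in P90 KO. The lowest KO sample was above the highest CTRL sample, and the fold change was 1.87 (log2 0.90 ± 0.23; edgeR adjusted p = 0.116). A group of 20 immediate early and dissociation-stress genes, which cells are known to induce while tissue is digested, moved with it: their summed level was 949.7 to 1651 CPM in CTRL and 1874 to 3200 CPM in KO. All 19 of these genes that were tested had positive log2 fold changes, with a median of 0.79, and 12 did not overlap. At P14, where Dusp1 overlapped, so did their sums (733 to 1243 CPM in CTRL and 1018 to 1401 CPM in KO). The part of sample handling in the adult Dusp1 difference was not tested. Dusp4 was at 0.413, 0.543 and 0.316 CPM in CTRL (4 to 8 reads) and 0.942, 0.646 and 1.90 CPM in KO (14 to 24 reads), again without overlap and again below the minimum for testing.

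Dusp5 ran the other way than in neonatal cells. It was at 7.79, 4.57 and 5.93 CPM in P90 CTRL and at 11.6, 10.5 and 9.28 CPM in P90 KO, so that every KO sample lay above every CTRL sample. The log2 fold change was 0.76 ± 0.20 (edgeR adjusted p = 0.121), with 42 to 151 reads in the CTRL libraries and 117 to 228 in the KO libraries. The P90 KO libraries, which were higher in Dusp5, were also higher in the sum of immediate early and stress genes. Within each group the order differed. Dusp5 was highest in replicate 1 of P90 CTRL and in replicate 1 of P90 KO, where that sum was lowest (949.7 and 1874 CPM). The part of these genes in the adult Dusp5 difference was not tested. Dusp6 was at 5.26, 10.1 and 5.85 CPM in CTRL and 11.6, 13.3 and 13.9 CPM in KO. P90 CTRL replicate 2, the shallowest library, was the highest CTRL sample for Dusp6 and the lowest for Dusp5. The log2 fold change of Dusp6 was 0.92 ± 0.22 (edgeR adjusted p = 0.0989), and 1.23 without P90 CTRL replicate 2, where Dusp6 passed by edgeR (adjusted p = 0.0279).

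Of the phosphatases that had risen in neonatal KO, Dusp8 and Dusp16 overlapped between the adult groups, unlike Dusp6. Dusp8 was at 94.1, 58.6 and 96.4 CPM in CTRL and 63.1, 73.3 and 82.5 CPM in KO, overlapping, with a log2 fold change of -0.19 ± 0.17 (edgeR adjusted p = 0.632). Dusp16 was at 10.1 to 17.4 CPM in CTRL and 11.6 to 13.3 CPM in KO, inside the CTRL range, with a log2 fold change of -0.16 ± 0.18 (edgeR adjusted p = 0.710). Dusp7 (80.8 to 92.2 CPM in CTRL, 84.5 to 98.0 in KO) and Dusp10 (12.4 to 15.0 and 13.5 to 18.0) overlapped as well, at log2 fold changes of 0.10 ± 0.10 and 0.20 ± 0.15.

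Among the Sprouty genes, Spry1 was at 4.54, 6.30 and 6.57 CPM in P90 CTRL and at 6.85, 7.84 and 8.97 CPM in P90 KO. The groups were separated by a gap narrower than the range of either, and the log2 fold change of 0.46 ± 0.20 did not pass (edgeR adjusted p = 0.277). Spry2 overlapped, at 3.16 to 4.18 CPM in CTRL and 3.65 to 4.34 CPM in KO (log2 fold change 0.12 ± 0.21). Endothelial marker sums were 173 to 228 CPM in CTRL and 167 to 258 CPM in KO, and fibroblast sums 48.3 to 67.1 and 47.6 to 67.2 CPM.

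**Figure D4:**
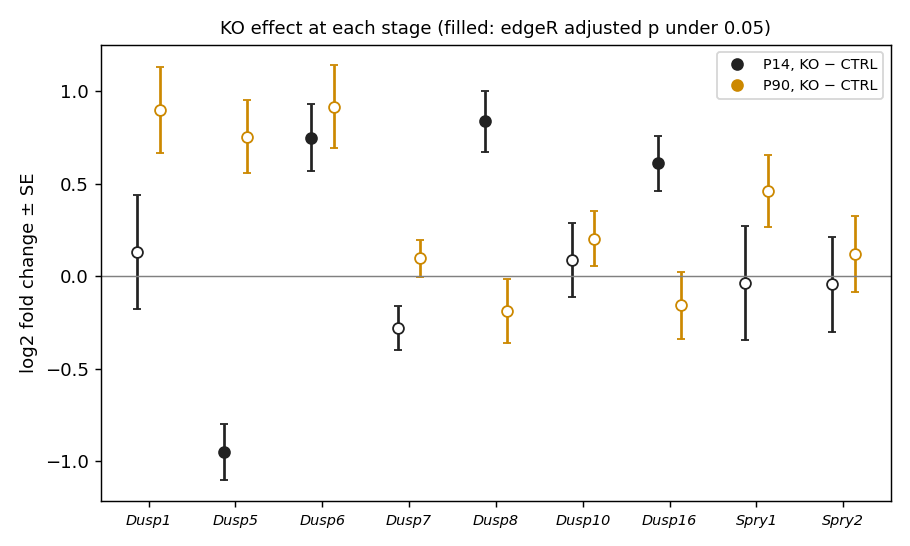
Log2 fold change of KO over CTRL (y axis, ± SE) at P14 (black) and P90 (orange) for the 9 genes tested at both stages; filled points passed an edgeR adjusted p of 0.05 and open points did not. Dusp5 lies at -0.95 at P14 and 0.76 at P90, and Dusp6 lies above 0 at both, at 0.75 and 0.92.

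To ask whether the KO effects themselves differed between stages, the difference between the neonatal and the adult effect was tested in a single fit of all 12 samples. Dusp5 differed: its neonatal effect was lower than its adult effect by 1.70 ± 0.26 on the log2 scale (edgeR adjusted p = 0.0156). It was the 1 gene of 10 that passed, where 1.78% of 12841 genes did (0.958% with the lower neonatal effect), and the call was kept in 14 of 17 alternative fits. The call was lost without P90 CTRL replicate 3, without P90 KO replicate 1 and without P90 KO replicate 2, where the difference was -1.66, -1.61 and -1.69 with an edgeR adjusted p of 0.0633, 0.0527 and 0.0646.

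Dusp8 and Dusp16 had a larger neonatal than adult effect by 1.03 ± 0.27 and 0.78 ± 0.25 on the log2 scale, which did not pass (edgeR adjusted p = 0.0670 and 0.118). DESeq2 called both genes along with Dusp5, and 7.13% of all genes. Dusp6 showed no detectable difference between stages, at -0.15 ± 0.32 (edgeR adjusted p = 0.845), and Dusp1 stood at -0.76 ± 0.45 (edgeR adjusted p = 0.391). Dusp4 reached the minimum for testing when all samples were fitted together. For it and for Dusp7, Spry1, Spry2 and Dusp10 the differences lay between -0.49 and 0.19 and did not pass. Dusp4 had the widest error, at 0.19 ± 0.73.

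The CTRL cells alone gave the course of these genes from P14 to P90. Dusp5, Dusp6 and Spry1 were lower at P90, at 0.362, 0.479 and 0.468 of their P14 level, and Dusp7 was 1.44-fold higher. Of 9 genes tested, 4 passed, 3 lower and 1 higher, where 29.3% of 12294 genes passed (14.9% lower, 14.5% higher). The per-sample values are those given above, and the samples of the 2 stages did not overlap in 5 of the 10 genes, 4 of them lower, where 44.9% of tested genes did not overlap (22.8% lower, 22.1% higher).

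Dusp5 shifted most among the 9, with a mean of 17.1 ± 2.15 CPM at P14 and 6.10 ± 1.62 CPM at P90 (SD over 3 samples). On the log2 scale this was -1.47 ± 0.22 (edgeR adjusted p = 0.00173). Dusp7 went from 61.0 ± 3.17 to 87.6 ± 6.01 CPM (log2 0.52 ± 0.11; edgeR adjusted p = 0.00758). Both calls were kept in all 11 alternative fits. Dusp6 went from 14.5 ± 3.51 to 7.07 ± 2.64 CPM (log2 -1.06 ± 0.29; edgeR adjusted p = 0.0240) and Spry1 from 12.3 ± 5.38 to 5.80 ± 1.10 CPM (log2 -1.10 ± 0.34; edgeR adjusted p = 0.0395), and these passed in 6 and 5 of the 11. Spry2 was lower in each P90 sample than in each P14 sample without passing, at -0.57 ± 0.25 (edgeR adjusted p = 0.110). Dusp1, Dusp8, Dusp10 and Dusp16 overlapped between the stages, with log2 fold changes of 0.34, 0.41, 0.13 and 0.04. Without P14 CTRL replicate 2 those of Dusp1 and Dusp8 were 0.13 and 0.24.

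Markers of some other cells moved with the stage. Of 6 mural markers in CTRL, 1 was called higher and 1 lower, and 0 of 5 tested leukocyte markers were called, where 29.3% of all genes were. The 1 tested erythroid and the 1 tested Schwann cell marker were called lower. For fibroblasts and endothelium, 4 of 6 markers each were called lower at P90, where 14.9% of all genes were. The median log2 fold changes of these 2 lists were -1.74 and -0.85, and their part in the lower Dusp6 and Spry1 levels was not tested. Leaving out P14 CTRL replicate 2, which had the fewest of these marker reads at P14, gave -1.27 for Dusp6 and -1.41 for Spry1. Both calls were lost without P14 CTRL replicate 1, without P14 CTRL replicate 3, without P90 CTRL replicate 1 and without P90 CTRL replicate 3, with log2 fold changes of -0.95 to -0.87 for Dusp6 and -1.19 to -0.74 for Spry1, and the Spry1 call also without P90 CTRL replicate 2 (-1.16). Age, the age at Cre delivery, the time since it and any difference in handling between the stages cannot be told apart. This also holds for the difference between the neonatal and the adult KO effects.

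Set side by side, the nuclear and the cytoplasmic ERK phosphatases Dusp5 and Dusp6 gave a ratio per length that differed between neonatal CTRL and KO cells. This ratio was chosen after its values were seen and is given without a test. Dusp5 over Dusp6 was 2.60, 3.44 and 2.76 in P14 CTRL and 0.948, 0.807 and 0.888 in P14 KO. In adult cells it was 3.58, 1.09 and 2.45 in CTRL and 2.42, 1.91 and 1.62 in KO, where all KO samples lay inside the CTRL range. Dusp8 over Dusp7 was 0.504 to 0.874 in neonatal CTRL and 1.36 to 1.58 in neonatal KO, without overlap, while the adult ratios overlapped (0.484 to 0.699 for CTRL, 0.431 to 0.578 for KO). Of the summed level per length of the 10 genes, Dusp1 made up 59.5% to 69.1% in neonatal CTRL and 57.0% to 72.6% in neonatal KO. Its share was 59.5% to 76.7% in adult CTRL against 76.4% to 84.2% in adult KO, and the latter ranges overlapped narrowly.

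**Figure D5:**
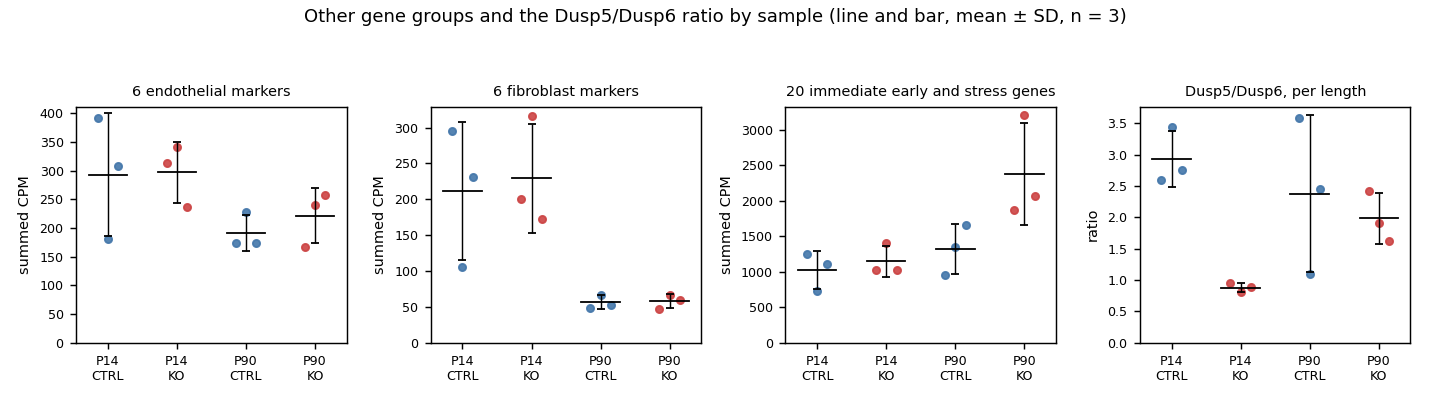
Summed CPM of 6 endothelial markers, 6 fibroblast markers and 20 immediate early and stress genes, and the ratio of Dusp5 to Dusp6 per length, on linear y axes from 0 for the 12 samples; points are samples, lines and bars are mean ± SD (n = 3), blue is CTRL and red is KO. The ratio lies at 2.60 to 3.44 in P14 CTRL and 0.807 to 0.948 in P14 KO, and the immediate early sum is 1874 CPM or more in the 3 P90 KO samples and at most 1651 CPM in the other 9.

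Over the 12 samples, 4 of the 10 genes varied by at least 2 on the log2 scale, and the genes with the most similar centred profiles were looked up for them as a description. Likeness was the root mean square difference of log2 CPM over 12 samples, which share libraries and depth. Dusp1 was closest to the immediate early genes Jun (0.25) and Btg2 (0.33). Dusp5 was closest to Mipol1 (0.29) and Fam84a (0.31), Dusp6 to Rgl1 (0.25) and Trp53 (0.26), and the sparsely counted Dusp4 to Ankrd45 (0.46) and Shc4 (0.50). The spans of the other 6 genes were 0.85 to 1.91.

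The relatives that complete the families were mostly unexpressed or uncalled. Dusp2 was at 0.103 to 0.870 CPM, Dusp9 had at most 1 read in a library, and Spry3 had none in any, so that with 3 counts as the limit up to 0.308 CPM could have gone unseen in the smallest library. Spry4, another Sprouty gene, was at 20.8, 4.45 and 9.30 CPM in P14 CTRL and 19.0, 19.0 and 22.2 CPM in P14 KO, which overlapped, and its P14 CTRL replicate 2 was again the lowest sample. In adult cells Spry4 was at 5.31, 4.46 and 4.27 CPM in CTRL and 6.41, 7.70 and 9.92 CPM in KO without overlap. Neither difference passed (log2 0.80 ± 0.44 and 0.76 ± 0.20; edgeR adjusted p = 0.309 and 0.124). Of the Sprouty-related Spred genes, Spred1 and Spred2 gave no call at either stage, and Spred2 was higher in adult KO without overlap (5.14 to 6.96 against 7.48 to 11.1 CPM). The atypical dual-specificity phosphatases, which lack the MAP kinase docking domain, had 0 of 10 calls at P14 and 0 of 9 at P90, where 8.59% and 0.39% of all genes were called. Their summed levels were 440.3 to 528 CPM in CTRL and 488 to 496 CPM in KO at P14.

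Genes of the MAP kinase cascades and of receptor tyrosine kinases were read against the 8.59% of all genes called at P14 and 0.39% at P90. In neonatal KO, 1 of 17 genes of the ERK cascade rose: Mapk3, which encodes ERK1, was at 28.03, 21.0 and 23.4 CPM in CTRL and 35.1, 39.4 and 41.9 CPM in KO (log2 0.68 ± 0.14; edgeR adjusted p = 0.0246). Of 12 JNK, p38 and ERK5 cascade genes tested, Mapk12 (p38 gamma) rose by 0.54 ± 0.13 and Mapk14 (p38 alpha) fell by 0.46 ± 0.10 on the log2 scale. Of 12 receptor tyrosine kinases, Erbb2, the co-receptor for neuregulin, rose from 27.0 ± 6.14 to 49.6 ± 6.07 CPM (log2 0.87 ± 0.18; edgeR adjusted p = 0.0255). In adult cells Mapk3 was higher in KO without overlap but did not pass (log2 0.58 ± 0.14; edgeR adjusted p = 0.0971), and these lists gave 0 of 16, 0 of 12 and 0 of 11 calls. Their medians stayed near those of all genes at P14, at 0.11, -0.08 and 0.11, and were -0.0049, -0.05 and -0.20 at P90.

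Genes known as outputs of ERK signalling were read beside the feedback genes, against 3.99% of all genes called higher at P14 and 0.237% at P90. In neonatal KO, 2 of 9 rose: Etv5, an ETS factor, from 37.8, 22.0 and 17.1 CPM to 73.6, 75.6 and 72.5 CPM (log2 1.52 ± 0.25; edgeR adjusted p = 0.0153), and Myc from 4.08, 1.70 and 3.69 CPM to 9.42, 12.1 and 10.4 CPM (log2 1.75 ± 0.31; edgeR adjusted p = 0.0173). In both, as in Dusp6, every KO sample lay above every CTRL sample, as it did in 16% of all tested genes. In adult KO, 1 of 9 rose, Phlda1, from 30.6, 21.6 and 36.1 CPM to 94.9, 69.6 and 59.1 CPM (log2 1.34 ± 0.20; edgeR adjusted p = 0.0251), while Etv5 (log2 1.02 ± 0.20; edgeR adjusted p = 0.0554) and Myc (1.30 ± 0.39; edgeR adjusted p = 0.152) did not pass. The median of the 9 was 0.07 at P14 and 0.21 at P90, with 6 positive and 3 negative log2 fold changes at P14 and 8 and 1 at P90. Epha4 was lower in KO without overlap at both stages and did not pass (log2 -1.16 ± 0.42 at P14 and -0.60 ± 0.12 at P90, edgeR adjusted p = 0.128 and 0.0644).

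The same shares of all genes apply to the remaining lists. Of the 6 ternary complex and MRTF cofactor genes of SRF, 2 rose in neonatal KO: Myocd from 185 ± 24.0 to 338 ± 44.2 CPM (log2 0.86 ± 0.14; edgeR adjusted p = 0.0153) and Mkl2 from 35.5 ± 5.44 to 51.0 ± 1.16 CPM (log2 0.52 ± 0.13; edgeR adjusted p = 0.0443). None of the 6 passed in adult KO. Among the immediate early and stress genes, 3 of 18 rose in neonatal KO, Atf3 (log2 1.17 ± 0.26), Klf6 (0.82 ± 0.20) and Jund (0.72 ± 0.16). In adult KO, 2 of 19 rose, Klf2 (log2 1.01 ± 0.13) and Hspa1b (1.90 ± 0.32), whose reads cannot be assigned with certainty because of its near-identical copy Hspa1a.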

How the data were processed

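RNA of sorted CMs was reverse transcribed and amplified with a SMART-Seq v4 kit and made into Nextera XT libraries for single-end sequencing. The authors aligned reads to mm10 with STAR 2.5.3a and counted reads per gene over exons with featureCounts (Subread 1.5.2), and the submitters' processing notes also name CASAVA 1.8; strand and multi-mapping settings are not given in the sources used here. The deposited values are raw counts per gene, in 1 table per stage. None of the 10 genes shares exon positions with another gene of the tables on either strand.

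From the counts, edgeR 4.0.16 (R 4.3.3, limma 3.58.1) was run with filterByExpr, TMM scaling, a quasi-likelihood F-test and Benjamini-Hochberg adjustment over all genes kept, separately for P14 KO against CTRL, P90 KO against CTRL and P90 against P14 CTRL (6 samples each), and with 4 group means over 12 samples for the difference between the KO effects. The threshold was an adjusted p of 0.05. SE is the absolute log2 fold change over the square root of F. CPM values used one TMM scaling of all 12 libraries, so a fold change can differ slightly from the ratio of printed means; profiles used log2 CPM with a prior count of 2. A floor of 3 counts covers counting error only, and PCR copies are not independent molecules. Alternatives were DESeq2 1.42.0, RLE size factors, total counts, no count filter, a replicate block, a joint fit, a term for Y-linked counts and leaving out each replicate. The code was tested on simulated data. Replicate libraries were compared pairwise by a chi-square of their counts, and none were duplicates. P14 CTRL replicate 2 differed most from the others of its group, at 48.9 and 55.4 per gene. All other pairs within groups gave 10.3 to 26.1. The authors' own differential expression results were not used.

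The 10 genes, the other gene lists and the motifs were chosen with earlier results of these data known. Named in the text were these 10 genes, Srf, the closest relatives, up to 4 genes with the largest change among those past the threshold in each other list, and for a gene with a log2 CPM span of at least 2 the 2 nearest profiles. Mapk3, Etv5 and Myc are also given in the comparison where they did not pass. Epha4 and some cell type markers are given without having passed in either KO comparison. Promoter windows came from RefSeq (GRCm38.p6). Summed fibroblast, endothelial, mural, leukocyte and erythroid markers were used to read other cells. The 6 mural markers summed to 398 to 669 CPM. Most of that sum was Abcc9, whose cell of origin was not tested, so it is not a measure of mural cells. The 4 Schwann cell markers summed to 1.42 to 5.11 CPM.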

Additional observations from a re-analysis of the deposited data

Results flagged for a closer look

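Dusp5 stood out because its KO effect differed between the stages by a test of the difference itself. The neonatal minus the adult log2 fold change was -1.70 ± 0.26 (SE; edgeR adjusted p = 0.0156), with 3 of 3 KO samples below all CTRL samples at P14 and 3 of 3 above all CTRL samples at P90. The adult effect alone did not pass (log2 0.76 ± 0.20; edgeR adjusted p = 0.121), and in the same adult libraries 19 of 19 tested immediate early and stress genes had positive log2 fold changes, with a median of 0.79. No test for outlying samples was run in groups of 3, though P14 CTRL replicate 2 differed most from the others of its group in pairwise comparison.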

How the results depend on the processing

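The counts of genes called were the results that moved most. In adult KO, 0 became 2 with DESeq2, 3 without a count filter and 3 with the replicate block, while calls over all genes went from 46 to 343, 701 and 655. For the difference between the KO effects, 1 became 3 with DESeq2 and 2 each with total counts, without a count filter and with the replicate block, while calls over all genes went from 228 to 916, 259, 474 and 687. Leaving out 1 replicate at a time gave 0 to 4 genes in neonatal KO, 0 to 1 in adult KO, 0 to 2 for the difference and 2 to 4 for the CTRL stages. Calls over all genes in these fits ran from 111 to 1004, 6 to 51, 4 to 377 and 2067 to 4768. Such a fit has fewer residual degrees of freedom, by the same amount whichever group loses a sample. Neonatal calls over all genes were 767, 1004 and 931 without P14 CTRL replicate 1, 2 or 3. They were 202, 111 and 181 without P14 KO replicate 1, 2 or 3. The cause of that difference was not tested. A term for Y-linked counts left 3 neonatal calls, without Dusp6. With the block the neonatal calls were the same 4 genes; in the CTRL comparison it called Dusp5, Dusp7 and Dusp8, losing Dusp6 and Spry1. Whether the replicate numbers pair the samples is not stated, and correlations of 3 samples per group cannot settle it. Same-number correlations of deviations were 0.05, 0.15 and 0.36 in neonatal and 0.18, -0.0003 and 0.05 in adult samples. Different-number correlations ran from -0.24 to 0.15 and from -0.25 to 0.17. In CTRL samples across stages the same-number correlations were -0.13, -0.05 and -0.06. Not every sample correlated best with its own number.

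No called gene changed sign. Signs changed for uncalled differences near 0: with total counts for neonatal Spry1 (0.16) and Spry2 (0.17), the difference between effects of Dusp6 (0.0188), Dusp10 (0.0725) and Spry2 (0.0156) and CTRL Dusp16 (-0.0741); with the replicate block for neonatal Spry1 (0.0438); and with the Y-linked term for neonatal Spry1 (0.0131) and adult Dusp16 (0.0315). Leaving out 1 replicate gave neonatal ranges of -0.25 to 0.38 for Dusp1, -0.0264 to 0.28 for Dusp10, -0.33 to 0.30 for Spry1 and -0.19 to 0.15 for Spry2, an adult range of -0.33 to 0.0314 for Dusp16, a CTRL range of -0.14 to 0.21 for Dusp16, and ranges for the difference of -0.21 to 0.71 for Dusp4, -0.46 to 0.0509 for Dusp6, -0.23 to 0.053 for Dusp10 and -0.31 to 0.0245 for Spry2. Over all settings, single-gene values kept direction and side of the threshold in 428 cases, lost the threshold in 31, gained it in 16 and changed sign in 28. Total counts moved the median of all genes by 0.21 in neonatal KO, 0.18 in the difference and -0.11 in the CTRL stages. Depth limited Dusp4, Dusp2 and Dusp9, whose CTRL libraries held at most 13 reads.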
